A study of Mus musculus with 2 samples.

Results

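Endothelial genes that hematopoietic stem cells (HSCs) also express were followed in mouse bone marrow HSCs. The cells were split by a reporter of SATB1, a nuclear protein that organizes chromatin and is best known from lymphocytes. The 10 genes were chosen by name as endothelial receptors, junction proteins and surface proteins, with earlier results of these data known. They were Tek, Tie1, Kdr, Eng, Robo4, Esam, Cdh5, Pecam1, Emcn and Myct1, and all 10 had a row among the 23210 genes used. Both groups were CD150-positive, Flt3-negative LSK cells (stem and progenitor cells without lineage markers but with Sca-1 and Kit) from mice with a Tomato reporter of Satb1. The SATB1-positive group was the Tomato-positive fraction and the SATB1-negative group the Tomato-negative fraction, with 1 RNA sequencing library each. The labels give neither the number, age or strain of the mice, nor how the reporter allele was built or how many copies the cells carried, and no treatment. With 1 library per group there is no spread between replicates, so no p-value was computed, and each difference is one between 2 libraries.

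Blood and endothelial cells arise from related embryonic precursors, and HSCs emerge from an endothelium, so both lineages share surface receptors and transcription factors. Tek (also called Tie2) binds angiopoietins and is linked to HSC quiescence in the bone marrow niche, and Tie1 is its partner receptor. Esam, an immunoglobulin-family adhesion protein of endothelial tight junctions, and Emcn, a sialomucin, are used as surface markers of HSCs. Cdh5 (VE-cadherin) is the adherens junction cadherin of endothelium, and Kdr is the main signalling receptor for VEGF-A.

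The members lie on 8 chromosomes, and 7 of them had an entry among the RefSeq promoter windows of GRCm38.p6. The 250 bases before the start were searched on both strands for the ETS letters AGGAAG or CGGAAG and the GATA letters AGATAA or TGATAA, since ETS and GATA factors act in both lineages. The ETS letters were in 4 of the 7 windows (Emcn, Eng, Robo4 and Tie1), against 39.2% of 32851 windows of all genes. The GATA letters were in 1 of the 7 (Myct1), against 16.6% of all windows. These matches describe the letters and are not binding sites. The 3 windows of which at least 200 bases lie before every annotated start of the gene are shown 5′ to 3′ with the matches in capitals, because they belong to members with lower values in SATB1-positive HSCs. Myct1 is on the plus strand at chr10:5593478-5593727, Emcn on the plus strand at chr3:137340828-137341061 and Eng on the plus strand at chr2:32646345-32646594.
Myct1: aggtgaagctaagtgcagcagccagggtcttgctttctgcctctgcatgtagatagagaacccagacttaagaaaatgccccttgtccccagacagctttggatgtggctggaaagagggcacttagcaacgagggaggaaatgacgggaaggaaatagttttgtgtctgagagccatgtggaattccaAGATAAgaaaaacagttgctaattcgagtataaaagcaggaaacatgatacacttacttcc
Emcn: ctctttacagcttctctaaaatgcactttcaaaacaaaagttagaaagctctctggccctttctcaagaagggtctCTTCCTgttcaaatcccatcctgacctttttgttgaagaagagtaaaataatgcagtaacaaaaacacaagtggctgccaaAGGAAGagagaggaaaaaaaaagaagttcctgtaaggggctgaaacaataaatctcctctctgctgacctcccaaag
Eng: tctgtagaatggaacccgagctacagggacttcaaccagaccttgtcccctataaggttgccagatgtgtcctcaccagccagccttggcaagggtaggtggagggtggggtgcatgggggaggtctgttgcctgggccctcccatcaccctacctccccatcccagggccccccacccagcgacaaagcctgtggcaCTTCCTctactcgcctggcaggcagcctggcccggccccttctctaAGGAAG

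Genes behind the sort had these values. Satb1 was at 8.26 FPKM (fragments scaled by transcript length and by the mapped total, deposited by the authors) in SATB1-positive HSCs, against 2.37 FPKM in SATB1-negative HSCs. Kit was at 286 FPKM in SATB1-positive and 318 FPKM in SATB1-negative HSCs, Ly6a (Sca-1) at 73.9 and 64.5 FPKM, Slamf1 (CD150) at 11.9 and 15.97 FPKM, and Procr, another HSC surface marker, at 17.5 and 24.6 FPKM, in the same order. Flt3, for whose product the cells were sorted as negative, was at 27.1 FPKM in SATB1-positive and 17.3 FPKM in SATB1-negative HSCs, so its transcript was present in both libraries although the gate was Flt3-negative. The depth, estimated from the steps between low values, was about 26780000 fragments in SATB1-positive and 34920000 in SATB1-negative HSCs. Intervals given here are 95% intervals from these estimated fragment numbers. They cover counting error only and not the spread between mice or sorts, and PCR copies can make them too narrow. Summed markers of other cell types also differed between the 2 libraries. Summed over 12 T and NK cell markers, FPKM was 386 in SATB1-positive and 165 in SATB1-negative HSCs, and all 12 were higher. Nkg7 alone, at 313 and 152 FPKM in the same order, held most of both sums. Of the 12, 7 (Cd3e, Cd3g, Cd3d, Il7r, Il2rb, Nkg7 and Gzmb) passed the rule of size described with the members. Of the 9308 genes that reached its minimum of 5 FPKM, 1.31% passed as higher. The sum over 12 monocyte and granulocyte markers was 3779 and 1982 FPKM. Mpo (1528 and 437 FPKM) and Elane (1081 and 490 FPKM) passed and held most of this difference, while S100a8 and Ngp were lower. Over 10 stromal markers the sum was 93.7 and 37.8 FPKM (Col1a1, Col1a2, Pdgfrb and Sparc passed). Of these 10, Cxcl12 was lower (2.87 and 4.19 FPKM) and 5 were below 1 FPKM in both libraries. Over 13 platelet markers the sum was 449.8 and 541 FPKM, with 6 lower, 6 higher and 1 below 1 FPKM in both (Ppbp passed, as higher). Cd48, which marks progenitors rather than HSCs, passed as higher as well. The part of such cells in the values of the endothelial genes was not tested, and fewer cells of a type cannot be told apart from less RNA per cell in bulk libraries.

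Most of the endothelial genes were lower in SATB1-positive HSCs. Of the 10 genes, 9 had lower FPKM in the SATB1-positive library and 1, Pecam1, had higher. Esam was lower 2.01-fold, while Robo4, Tek, Myct1 and Tie1 were lower 1.60-fold to 1.81-fold and Emcn and Eng 1.35-fold to 1.42-fold. The FPKM of the 10 genes summed to 204 in SATB1-positive and 320 in SATB1-negative HSCs, a ratio of 0.638. The counting interval of the fold lay wholly below 1 for 9 genes and wholly above 1 for Pecam1. The 9 include Kdr and Cdh5, both below 1 FPKM in both libraries. Cdh5 rests on about 1 fragment in SATB1-positive and 11 in SATB1-negative HSCs. The share of all genes with such intervals was not computed. Small folds of abundant genes can also have them, as for Kit, 1.11-fold lower (1.10 to 1.13).

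The size of these differences was read with log2((SATB1-positive FPKM + 1)/(SATB1-negative FPKM + 1)), in which the added 1 understates differences of genes near or below 1 FPKM. The rule of size asked for a log2 ratio of 1 or more, or of -1 or less, and for a minimum of 5 FPKM in whichever library was higher. None of the 10 genes passed it. Esam came nearest, with a log2 ratio of -0.98, and passes with a pseudocount of 0.1 (-1.002) and with upper-quartile scaling (-1.005). Over all 9308 genes that reached 5 FPKM in either library, 0.688% passed as lower and 1.31% as higher. At a threshold of 1.5-fold, 5 of the 8 members at this level were lower (Esam, Robo4, Myct1, Tek and Tie1), against 2.90% of all genes at this level, and 0 were higher, against 3.80% of all genes. These 8 members had at least 5 FPKM in both libraries, so the minimum did not favour either group. Of the 8, 7 had a log2 ratio below 0, against 51.0% of the 11873 genes that reached 1 FPKM in either library. Their median log2 ratio was -0.67, and that of all genes at this minimum was -0.0059. The members and rules were chosen with earlier results of these data known, so these contrasts with all genes are descriptive and no independent test.

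**Figure D1:**
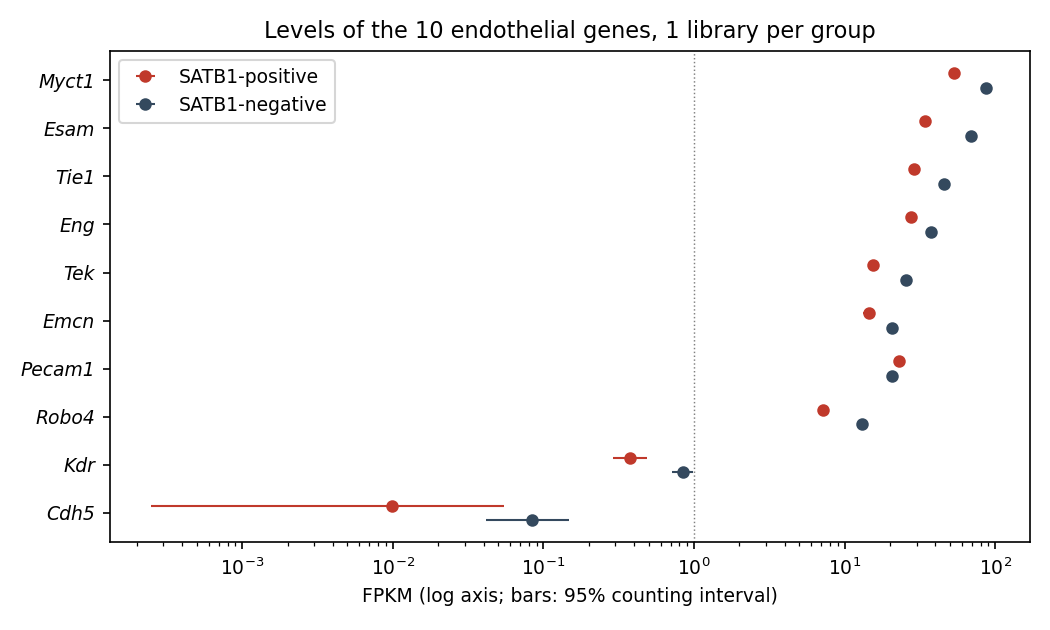
FPKM on a log axis for each of the 10 genes, with SATB1-positive HSCs in red above SATB1-negative HSCs in dark blue; bars are 95% counting intervals and the dotted line marks 1 FPKM. The red point lies left of the dark blue one for every gene but Pecam1, and Kdr and Cdh5 lie below 1 FPKM in both libraries.

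Tek and Tie1 are paired receptor tyrosine kinases of the angiopoietin pathway. Tek (ENSMUSG00000006386.15, chromosome 4, plus strand, 94739289 to 94874976 of GRCm38, the mm10 assembly) was at 15.5 FPKM in SATB1-positive HSCs, against 25.6 FPKM in SATB1-negative HSCs, 1.65-fold lower (1.56 to 1.75; about 1641 and 3544 fragments). Tie1 (ENSMUSG00000033191.14, chromosome 4, minus strand, 118471191 to 118490061) was at 28.7 FPKM in SATB1-positive and 45.9 FPKM in SATB1-negative HSCs, 1.60-fold lower (1.53 to 1.67). The intervals of these 2 folds overlap, and Tek stood at 0.538 of the Tie1 level in SATB1-positive and at 0.557 in SATB1-negative HSCs, so the pair kept nearly the same proportion. Angpt1, the activating ligand of Tek, was itself abundant in the sorted cells, at 175.5 FPKM in SATB1-positive and 220.3 FPKM in SATB1-negative HSCs, 1.25-fold lower (1.23 to 1.28). Angpt2, the context-dependent antagonist, was at 0.0989 and 0.0887 FPKM in the same order, and Ptprb, the phosphatase that acts on Tek in endothelium, at 0.0352 and 0.0172 FPKM. These 3 genes were picked for this description with their values known. Transcripts of the ligand and of both receptors were present, while those of the endothelial antagonist and phosphatase were near 0.

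Kdr (ENSMUSG00000062960.10, chromosome 5, minus strand, 75932827 to 75978458) was scarce. It was at 0.378 FPKM in SATB1-positive HSCs (about 58 fragments), against 0.839 FPKM in SATB1-negative HSCs (about 168 fragments), 2.22-fold lower (1.64 to 3.05). Its log2 ratio with the added 1 was -0.42 and -0.97 with a pseudocount of 0.1, so that the ratio depends on the pseudocount at this level. Of the VEGF ligand genes, Vegfa, Vegfb and Vegfc were at higher levels than Kdr, while Pgf and Figf were below it in both libraries. Vegfb, like Pgf and Figf picked with its values known, was at 31.0 FPKM in SATB1-positive and 28.7 FPKM in SATB1-negative HSCs. Vegfa was at 28.0 FPKM in SATB1-positive and 36.2 FPKM in SATB1-negative HSCs, 1.29-fold lower (1.13 to 1.49). Vegfc, which acts mainly on lymphatic endothelium, was at 6.16 and 12.3 FPKM in the same order, a fold of 0.5001 (0.442 to 0.564), with a log2 ratio of -0.90 that does not pass the rule of size. The co-receptor gene Nrp1 was at 2.42 FPKM in SATB1-positive and 1.29 FPKM in SATB1-negative HSCs, and Plcg1, a phospholipase downstream of receptor tyrosine kinases, at 21.7 and 14.8 FPKM. Over the list of angiopoietin and VEGF pathway genes, 9 of 18 in the files reached 1 FPKM, 5 of these lay below 0 in log2 ratio and 4 above, no gene passed the rule of size, and the median was -0.22 (0.02 when the 9 genes below 1 FPKM are included).

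Eng (endoglin, ENSMUSG00000026814.16, chromosome 2, plus strand, 32646595 to 32682669) is a co-receptor for BMP and TGF-beta ligands. It was at 27.6 FPKM in SATB1-positive HSCs, against 37.1 FPKM in SATB1-negative HSCs, 1.35-fold lower (1.28 to 1.42). It shares 61 exonic bases with Fpgs on the other strand, and how counting treated strand is not given in the sources used here. Acvrl1, the BMP9 receptor that works with endoglin in endothelium, also picked with its values known, was at 0.339 FPKM in SATB1-positive and 0.5465 FPKM in SATB1-negative HSCs. Id1, a common transcriptional target of BMP signalling, was at 17.0 FPKM in SATB1-positive and 30.6 FPKM in SATB1-negative HSCs, 1.80-fold lower (1.58 to 2.06). Bmpr2 was at 1.28 and 2.30 FPKM in the same order, whereas Tgfbr2, at 25.8 and 20.2 FPKM, and Tgfbr1, at 13.9 and 12.7 FPKM, were slightly higher. Of 11 measured genes of this pathway, 8 (72.7%) lay below 0 in log2 ratio, against 51.0% of all measured genes. For Smad5 and Acvr1, among these 8, the counting interval of the fold included 1. No gene of this pathway passed the rule of size, and the median was -0.15.

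Robo4 (ENSMUSG00000032125.20, chromosome 9, plus strand, 37401897 to 37415115) is a roundabout-family receptor of endothelium and HSCs. It was at 7.23 FPKM in SATB1-positive HSCs, against 13.1 FPKM in SATB1-negative HSCs, a fold of 0.552 (0.4999 to 0.608). It was the leading roundabout gene in both libraries. Robo3 was at 1.13 FPKM in SATB1-positive and 1.35 FPKM in SATB1-negative HSCs, and Robo1, Robo2 and the ligand genes Slit1, Slit2 and Slit3 were below 1 FPKM in both. Of the 3 measured genes of the Slit and Robo list, Srgap2 was at 7.62 and 6.50 FPKM and Srgap3 at 1.94 and 3.09 FPKM in the same order; none passed the rule of size and the median log2 ratio was -0.14 (0.20 at a minimum of 5 FPKM, which leaves Srgap2 alone, and -0.36 in TPM).

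Esam and the junction genes held both the largest difference among the 8 abundant members and its exception. Esam (ENSMUSG00000001946.14, chromosome 9, plus strand, 37528078 to 37538319) was at 34.2 FPKM in SATB1-positive HSCs (about 1515 fragments), against 68.5 FPKM in SATB1-negative HSCs (about 3972 fragments), 2.01-fold lower (1.89 to 2.13). Among the 8 abundant members this interval overlaps that of Robo4 but not those of Tek, Tie1, Myct1, Eng, Emcn or Pecam1. The share of the summed FPKM of the 10 genes that Esam held was 16.7% in SATB1-positive and 21.4% in SATB1-negative HSCs. Pecam1 (CD31, ENSMUSG00000020717.19, chromosome 11, minus strand, 106654217 to 106750628), an adhesion receptor of endothelium, platelets and leukocytes, was at 22.9 FPKM in SATB1-positive HSCs, against 20.6 FPKM in SATB1-negative HSCs, 1.11-fold higher (1.04 to 1.19; the lower bound is 0.976 with 0.25 of the estimated depth). Esam was therefore 1.49 times the level of Pecam1 in SATB1-positive and 3.33 times in SATB1-negative HSCs. T and NK cells, monocytes and platelets also express Pecam1, and the summed markers of T and NK cells and of monocytes and granulocytes were higher in the SATB1-positive library, while those of platelets were lower; their part in the Pecam1 value was not tested.

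Cdh5 (ENSMUSG00000031871.9, chromosome 8, plus strand, 104101625 to 104144511) was close to 0 in both libraries. About 1 fragment stood behind its 0.0099 FPKM in SATB1-positive HSCs, and about 11 behind its 0.0837 FPKM in SATB1-negative HSCs, a fold of 0.118 (0.0027 to 0.814). The catenin genes were expressed without it, with Ctnnb1 (beta-catenin) at 52.9 FPKM in SATB1-positive and 49.1 FPKM in SATB1-negative HSCs (a gene picked with its values known). Among junction partners the junctional adhesion molecules, relatives of Esam, had the lowest ratios. F11r (JAM-A) was at 15.5 FPKM in SATB1-positive and 32.9 FPKM in SATB1-negative HSCs, 2.11-fold lower (1.96 to 2.28), and with a log2 ratio of -1.03 it was the one junction partner past that rule (-0.88, not past it, when the pseudocount is 5). Jam2 was at 1.17 and 3.73 FPKM in the same order, 3.19-fold lower (2.63 to 3.90), under the 5 FPKM minimum. Jam3, likewise picked with its values known, was at 7.35 and 14.7 FPKM, 1.996-fold lower (1.76 to 2.27). Cd99l2, at 8.43 and 6.50 FPKM, and Tjp1, at 1.89 and 1.33 FPKM, had the highest ratios. Of 17 measured junction partners, 13 (76.5%) had a log2 ratio below 0, against 51.0% of all measured genes, and the median was -0.13. For Vcl, Cldn12, Jup and Icam2, among these 13, the counting interval of the fold included 1.

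**Figure D2:**
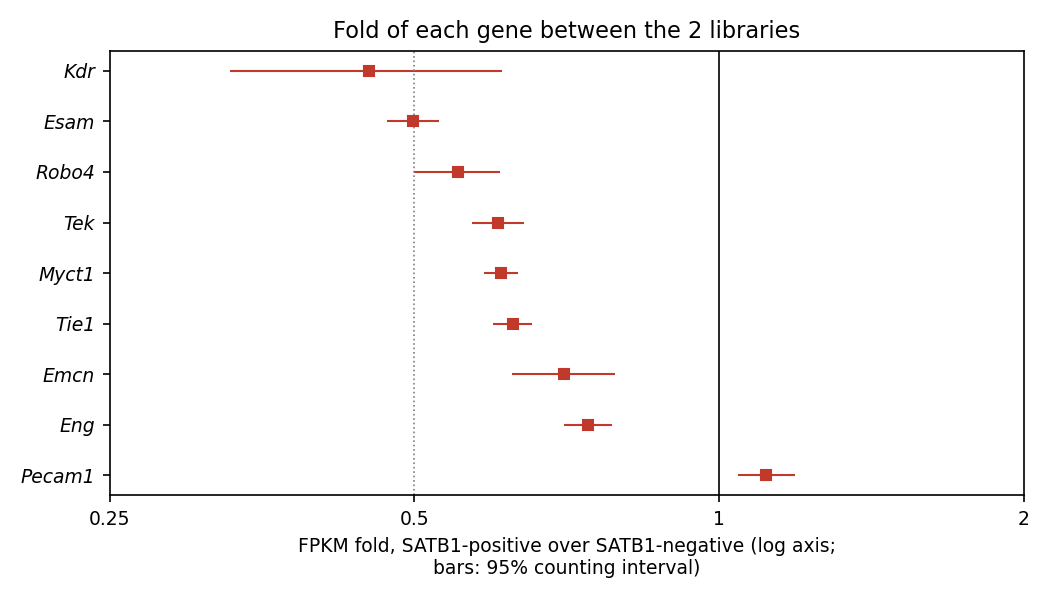
Fold of FPKM, SATB1-positive over SATB1-negative HSCs, on a log axis for 9 of the genes (Cdh5, with about 1 and 11 fragments, is left out); bars are 95% counting intervals, the solid line marks no difference and the dotted line a halving. Esam lies at 0.499, the other genes but Kdr and Pecam1 lie between 0.552 and 0.743, and Pecam1 alone lies above 1, at 1.11.

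Emcn and Myct1 encode membrane proteins outside the receptor and junction classes. Emcn (endomucin, ENSMUSG00000054690.17, chromosome 3, plus strand, 137341067 to 137432185) was at 14.5 FPKM in SATB1-positive HSCs, against 20.7 FPKM in SATB1-negative HSCs, 1.42-fold lower (1.27 to 1.60). Myct1 (ENSMUSG00000046916.9, chromosome 10, plus strand, 5593775 to 5606904), an endothelial and HSC membrane protein gene named as a target of MYC, was the most abundant of the 10 genes in both libraries. It was at 53.2 FPKM in SATB1-positive HSCs, against 87.4 FPKM in SATB1-negative HSCs, 1.64-fold lower (1.58 to 1.71; about 3754 and 8056 fragments). The Emcn and Eng intervals overlap, while the Emcn value rests on about 446 and 832 fragments and has the widest relative interval of the 8 abundant members.

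The order of the levels per length was nearly the same in the 2 libraries. In SATB1-positive HSCs it ran Myct1, Esam, Tie1, Eng, Pecam1, Tek, Emcn, Robo4, Kdr and Cdh5, and the counting intervals of Tie1 and Eng and of Tek and Emcn overlapped. In SATB1-negative HSCs it ran Myct1, Esam, Tie1, Eng, Tek, Emcn, Pecam1, Robo4, Kdr and Cdh5, and those of Emcn and Pecam1 overlapped. The change of place was that of Pecam1, at rank 5 in SATB1-positive and rank 7 in SATB1-negative HSCs. Against all genes that reached 1 FPKM in either library, Esam stood at the 72.7th percentile in SATB1-positive and the 88.0th in SATB1-negative HSCs, and Pecam1 at the 61.8th and the 58.9th. The 3 genes with a mean of at least 5 FPKM whose pair of values lay nearest to that of Esam were Bex4 (34.7 FPKM in SATB1-positive and 71.6 FPKM in SATB1-negative HSCs), Gng11 (33.2 and 65.5 FPKM) and Hmgn3 (36.4 and 68.8 FPKM), by distance in log2(FPKM + 1) over the 2 libraries.

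Most genes on the list of endothelial-defining markers were scarce in both libraries. Of 19 endothelial-defining markers in the files, 13 were below 1 FPKM in both libraries, against 11337 of all 23210 genes. Among the 13 were the tight junction gene Cldn5 (0.401 FPKM in SATB1-positive and 0.593 FPKM in SATB1-negative HSCs), Nos3, Gpihbp1, Mmrn2, Flt1 and Stab2. These 13 summed to 1.86 FPKM in SATB1-positive and 2.62 FPKM in SATB1-negative HSCs, and none was listed at exactly 0. The whole list summed to 290 and 267 FPKM in the same order, most of it from Eltd1, an adhesion G protein-coupled receptor gene at 213 FPKM in SATB1-positive and 184 FPKM in SATB1-negative HSCs, and Egfl7, at 62.2 and 61.1 FPKM. Ecscr, an endothelial cell surface protein gene, was at 7.06 FPKM in SATB1-positive and 13.3 FPKM in SATB1-negative HSCs, 1.88-fold lower (1.57 to 2.26). Plvap was at 3.63 and 2.48 FPKM, Rasip1 at 1.40 and 1.87 FPKM and Sox18 at 0.555 and 1.81 FPKM. The 6 measured markers were split, 3 below 0 and 3 above, with a median log2 ratio of -0.12 (0.03 over the 3 with at least 5 FPKM) and 0 past the rule of size.

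**Figure D3:**
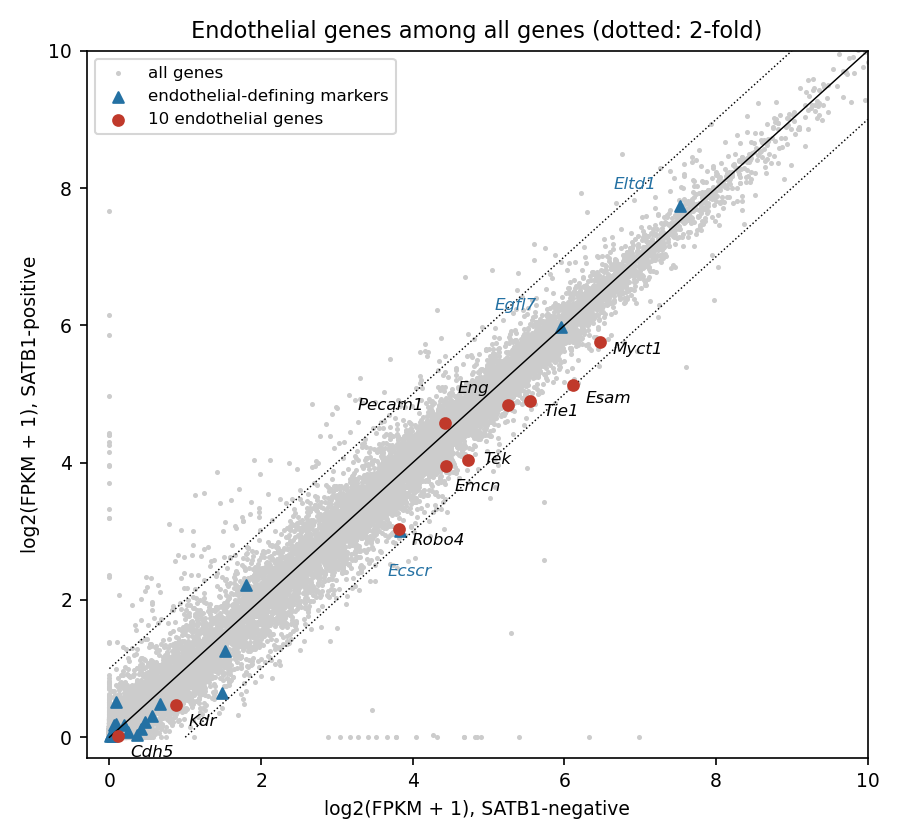
log2(FPKM + 1) in SATB1-positive (vertical) against SATB1-negative HSCs (horizontal) for all genes in grey, the 10 endothelial genes in red and 19 endothelial-defining markers as blue triangles; the axes end at 10, the solid line marks equal values and the dotted lines a 2-fold difference. Esam lies just inside the lower 2-fold line, Pecam1 lies just above the solid line, and most triangles lie near the origin.

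Of the measured transcription factors shared by endothelium and HSCs, most lay below 0 in log2 ratio, several only slightly, and some lay above 0. Tal1, a partner of GATA and LMO2 in both lineages, was at 10.7 FPKM in SATB1-positive HSCs, against 18.6 FPKM in SATB1-negative HSCs, 1.74-fold lower (1.61 to 1.88). The ETS-family gene Erg was at 7.73 FPKM in SATB1-positive and 5.38 FPKM in SATB1-negative HSCs, and Ets1, another of the family, at 23.3 and 11.3 FPKM, 2.07-fold higher (1.88 to 2.28) with a log2 ratio of 0.99 just under the rule of size. Fli1 and Mecom, both picked with their values known, were lower. Fli1 was at 84.1 and 112.5 FPKM in the same order, 1.34-fold lower (1.30 to 1.38). Mecom was at 31.1 and 49.4 FPKM, 1.59-fold lower (1.53 to 1.66). Of 15 measured factors, 11 (73.3%) lay below 0 in log2 ratio and 4 above, against 51.0% of all genes below 0. None of the 15 passed the rule of size, and the median was -0.10. Of the 11 below 0, Etv6, Elk3 and Lyl1 had folds of 0.996, 0.971 and 0.953, with counting intervals that include 1.

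**Figure D4:**
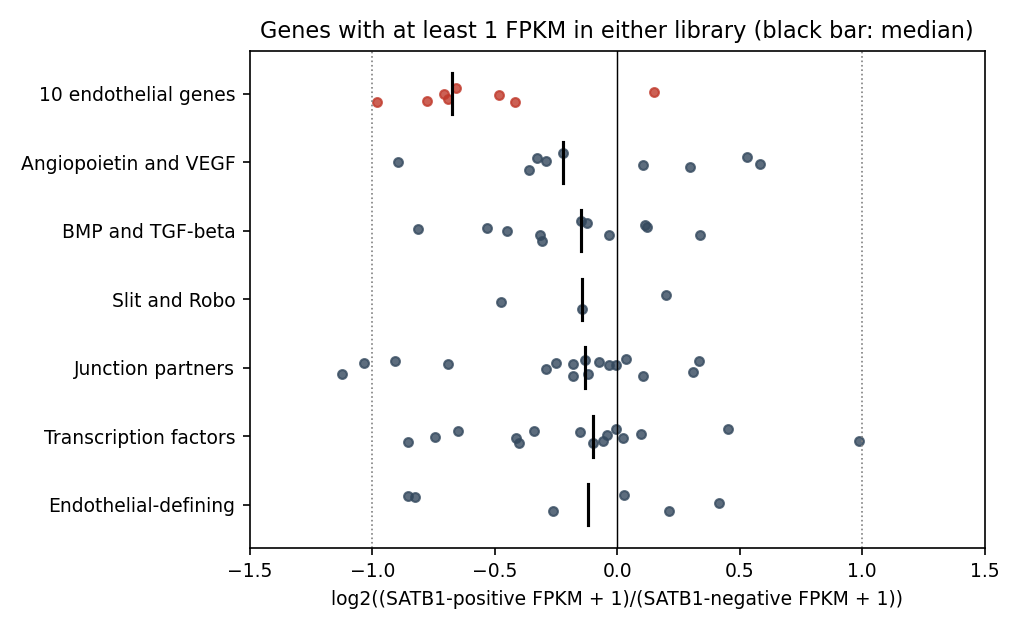
log2((SATB1-positive FPKM + 1)/(SATB1-negative FPKM + 1)) of each gene that reached 1 FPKM in either library, by list; dots are genes, black bars medians and dotted lines the limits at -1 and 1. The endothelial genes have a median of -0.67, and the medians of the 6 other lists lie between -0.22 and -0.10.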

How the data were processed

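The series holds 1 RNA sequencing library of SATB1-positive and 1 of SATB1-negative HSCs. Per the labels' protocols, RNA came from a miRNeasy extraction and went into a stranded SMARTer (Clontech) library. Per the file headers, the authors deposited FPKM, with a single value for each symbol. Cufflinks 2.2.1, TopHat2 2.0.13, SAMtools 0.1.19, Bowtie2 2.2.3 and the build mm10 stand in the submitters' processing notes. Their settings, the gene annotation and whether counting used strand: not given in the sources used here. Cufflinks divides fragments among isoforms and overlapping genes by a model, which can shift the FPKM of a gene.

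Each file held 23235 rows, of which 25 with symbols turned into dates were left out. Depth was searched with GENCODE M21 genes of 1 exon and 1 transcript for the value that made most low FPKM whole within 0.05 fragments; 59.8% of 239 values in SATB1-positive and 60.8% of 204 in SATB1-negative HSCs were whole, against 10% for a depth taken at random. A multiple of a depth fits as well, so the lowest was taken. The search maximised this share, so 10% is no chance level for its result. Fragments per gene followed from FPKM, this depth and the shortest RefSeq-linked transcript, and folds have exact (Clopper-Pearson) intervals, levels exact Poisson intervals. The steps were tested on simulated data. Python 3.11.15, pandas 2.3.3 and scipy 1.17.1 were used.

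The members, lists and rules were chosen with earlier results of these data known. Of each list, genes past the rule of size, the 2 highest and the 2 lowest ratios and every endothelial-defining marker with at least 1 FPKM were named. Marker lists of other cell types are given as sums, with members that went the other way named once their values were known. Genomic neighbours are the nearest protein-coding RefSeq genes with a row in the files, and 1 of them is not reported here. Tried were other pseudocounts, scalings, minimums and thresholds, 0.25 of the depth and the longest transcript.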

Additional observations from a re-analysis of the deposited data

How the results depend on the processing

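Pecam1 stayed above 0 and the other 9 genes below 0 under pseudocounts of 0.1 and 5, median-ratio, TPM and upper-quartile scaling. The scalings moved all plain log2 ratios by between -0.0225 and 0.0030. The number of members past the rule of size was 0 as reported. It was 1 with a pseudocount of 0.1 and with upper-quartile scaling, and 5 at a 1.5-fold threshold. The median log2 ratio of the members was -0.67 as reported, -0.57 with a pseudocount of 5 and -0.57 when members below 1 FPKM were included. The number of all genes past the rule was 64 as lower and 122 as higher. It was 36 and 68 with a pseudocount of 5, 270 and 354 at 1.5-fold, and 25 and 24 at 4-fold, and in TPM 100 genes were lower. Of 50 member ratios under alternatives, 4 moved by more than their counting interval, those of Tek, Tie1 and Robo4 with a pseudocount of 5 (-0.58, -0.59 and -0.57) and that of Kdr with 0.1. Of 154 counts and medians of the lists, 20 moved by more than 1.5 times (counts) or 0.1 (medians). The medians that changed sign were those of the angiopoietin and VEGF list without a minimum (0.02) and of the Slit and Robo list (0.20) and the endothelial-defining list (0.03) at a minimum of 5 FPKM. With 0.25 of the depth the upper bound of the Kdr fold was 0.842, and the lower bound of the Pecam1 fold was 0.976, below 1. The intervals of the other genes stayed below 1, except that none could be computed for Cdh5. No paired analysis was possible because each group has 1 library, and leaving out a library was not possible for the same reason.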

Other observations

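The genomic neighbours of the endothelial genes were at very different levels. Robo4 and Esam lie 114 kb apart on chromosome 9, both with lower values in SATB1-positive HSCs. Their nearest protein-coding neighbours with a row in the files were at low levels, with Vsig2, 936 bases after Esam, at 0.387 FPKM in SATB1-positive and 0.744 FPKM in SATB1-negative HSCs, and Robo3, between Robo4 and Esam, at 1.13 and 1.35 FPKM. Near Tie1, 2610528J11Rik was at 0.842 FPKM in SATB1-positive and 1.54 FPKM in SATB1-negative HSCs. The neighbours of Tek (Lrrc19 and 4930579C15Rik) were below 1 FPKM in both libraries, and those of Myct1 were Syne1, at 3.32 and 3.28 FPKM in the same order, and Vip, below 1 FPKM in both.

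The neighbours of Pecam1 and Kdr, chosen after their values were seen, were as follows. Pecam1, the one member with a higher value, has Tex2 on one side, at 24.5 FPKM in SATB1-positive and 16.6 FPKM in SATB1-negative HSCs, and Gm885 (now Milr1) on the other, at 11.7 and 7.29 FPKM. Kdr has Srd5a3 161 kb away on one side, at 16.00 FPKM in SATB1-positive and 16.3 FPKM in SATB1-negative HSCs. On the other side, 276 kb away, lies Kit, the stem cell factor receptor gene, which was at 286 FPKM in SATB1-positive and 318 FPKM in SATB1-negative HSCs while Kdr was below 1 FPKM in both.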
